A study of Mus musculus with 2 samples.

Results

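Neutrophils of a sorted mouse brain sample were described from droplet single-cell RNA counts. They were chosen from the UMIs (unique molecular identifiers, 1 per captured RNA molecule) of 8 genes: a kept cell (500 or more genes detected, no more than 10% of UMIs mitochondrial) had to hold at least 10 UMIs of S100a8 and S100a9 together and a UMI of at least 1 of Retnlg, Cxcr2, Ly6g, Camp, Ngp and Mmp8. The rule found 128 neutrophils among 10076 kept cells of the sorted sample; both samples together held 19443 kept cells. The sorted sample came from male mice aged 3 and 12 months, wild type and STING-KO (lacking STING, an adaptor of cytosolic DNA sensing), and was FACS-sorted by a gate that the labels do not give. The total brain sample was unsorted, from male and female mice aged 2 and, by the sample's title, 24 months, also of both genotypes. In each sample, 2 mice were grouped per genotype and age, and all cells were pooled into 1 matrix whose barcodes carry the suffixes 1 to 4. No map from suffix to age, genotype or mouse was used here, so each sample counts as 1, ages and genotypes cannot be told apart, and no difference was tested. Intervals are exact, at 95%, and cover counting error only.

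Neutrophils are short-lived white blood cells that form in the bone marrow and circulate in blood. As they mature they fill their granules in a fixed order. Primary granules come first, with Mpo and the serine proteases, then secondary granules with lactoferrin, Camp and Ngp. Tertiary granules follow, with Mmp9. Mature cells keep the granule proteins, lose most granule mRNAs, and gain attractant receptors such as Cxcr2. In the healthy brain they are rare in the tissue and are found mainly inside vessels, in the meninges and in the bone marrow of the skull.

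The label could be checked only in part, since 8 of the 9 neutrophil markers are genes of the rule. The other, Csf3r, was read in 46.1% of neutrophils and in 32.9% of 4818 microglia-reading cells, so it gives only a weak check. The values that follow are those the rule used. S100a8 and S100a9, the subunits of calprotectin, took 28.3% of all UMIs of the neutrophils and between 0.686% and 51.1% of the UMIs of a single cell. The lowest members held 12, 12, 16 and 24 UMIs of the S100 pair, and the next held 54, against a median of 892.5 and a maximum of 3854. With a minimum of 30, the classes described later held 75 mature and 49 precursor cells, in place of 79 and 49. The members under 30 were thus all mature, and whether each is a neutrophil was not tested. The highest cells outside held 5, 5 and 4 UMIs, and 75.4% of the other cells held none, so the minimum of 10 fell in a gap. Retnlg was seen in 117 neutrophils, Mmp8 in 83, Ngp in 81, Ly6g in 70, Camp in 66 and Cxcr2 in 56. Camp had a UMI in 51.6% of neutrophils, at a median depth of 2648.5 UMIs, and in 2.24% of the microglia-reading cells, which should lack it, at a median depth of 2098 UMIs. S100a8 had a UMI in 724 of those 4818 cells.

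Genes of other cell types were read in some members. The genes Ncr1, Klrb1c, Gzma and Klre1 of natural killer cells were all at 0, which allows up to 6.52 CPM for each. Of the 7 monocyte genes F13a1 and Vcan were at 0, and the list summed to 1583 CPM (counts per 1000000 UMIs) in neutrophils, against 362 CPM in the 9948 other kept cells and 7692 CPM in monocyte-reading cells. Most of it was Ly6c2, at 1090 CPM in neutrophils, and Plac8, at 467 CPM. The list stood at 742 CPM in the mature and 2249 CPM in the precursor neutrophils described later, and its part in the results was not tested. In 35 of the 128 neutrophils, at least 3 genes of a list of another cell type had a UMI, in 24 of 79 mature and 11 of 49 precursor cells. Ttr, the abundant secreted product of choroid plexus, was read in all 128, took a median of 0.504% of a cell's UMIs and passed 10% in 6 cells. No member was called a doublet by Scrublet, which called 85 of 10076 kept cells. No barcode sequence was shared between neutrophils of different suffixes, and 1 was also held by another barcode of the sorted sample.

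Suffix 3 held more neutrophils than the others. The suffixes 1 to 4 held 29, 23, 54 and 22 neutrophils among 3160, 2376, 2034 and 2506 kept cells. The shares were 0.918% (0.615% to 1.32%) in suffix 1, 0.968% (0.615% to 1.45%) in suffix 2, 2.65% (2.00% to 3.45%) in suffix 3 and 0.878% (0.551% to 1.33%) in suffix 4. At this cell filter, the interval of suffix 3 lay above the other 3, which overlapped each other. Without suffix 3 the share of the sample was 0.920%, against 1.27% (1.06% to 1.51%) with it. Monocyte-reading cells were also uneven, at 0.633%, 0.253%, 1.87% and 1.52% of kept cells in suffixes 1 to 4. Suffix 3 was thus highest for both, so its excess was not particular to neutrophils. Whether suffix 3 was a condition, a mouse pool or a well is not given.

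**Figure D1:**
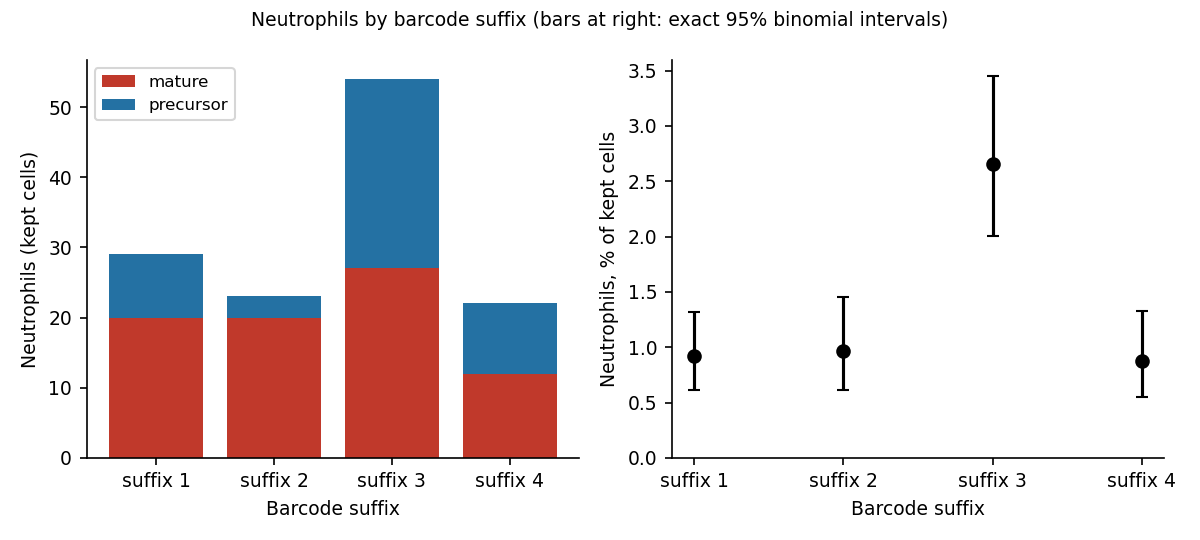
The left panel stacks the mature and precursor neutrophils of each barcode suffix, and the right panel gives neutrophils as a percent of kept cells with exact 95% binomial intervals. Suffix 3 has 54 neutrophils, 27 of each class, and its share of 2.65% lies above the intervals of the other suffixes.

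The cell filter removed nearly as many marker-positive barcodes as it kept. In the sorted sample 240 barcodes met the marker rule, and 112 of them had at least 200 but under 500 genes. Of those 112, 108 were mature and 4 precursor by the split given next. The filter therefore kept 42.2% of 187 mature and 92.5% of 53 precursor barcodes, against 75.03% of all other barcodes. The removed barcodes had a median of 936.5 UMIs and 381.5 genes. By suffix the removed barcodes numbered 9, 12, 44 and 47, so with them suffix 4 held 69 neutrophils in place of 22. With the looser filter (200 genes, 20% mitochondrial) the shares of suffixes 1 and 2 were 0.964% (0.683% to 1.32%) and 1.17% (0.819% to 1.63%). Those of suffixes 3 and 4 were 4.08% (3.32% to 4.95%) and 2.12% (1.65% to 2.67%). The interval of suffix 4 then lay above those of suffixes 1 and 2.

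**Figure D2:**
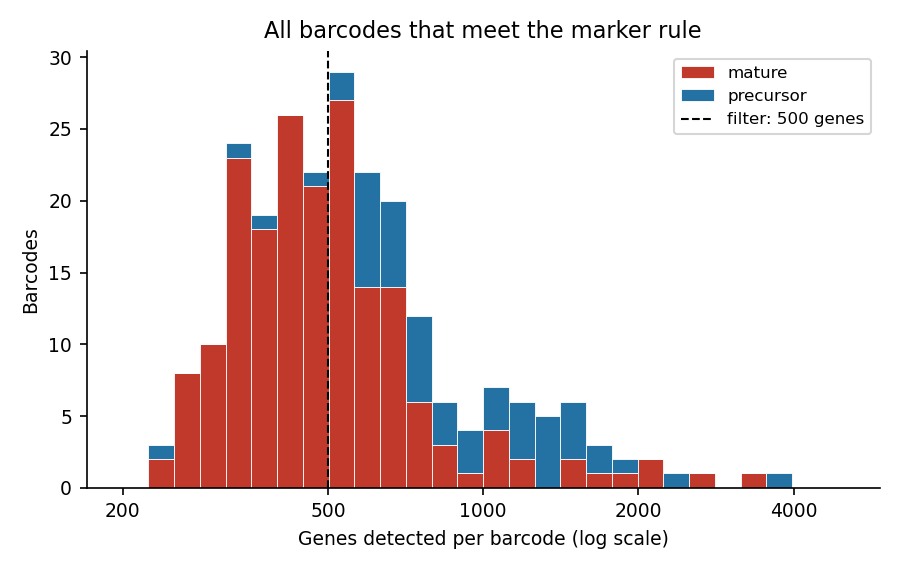
The stacked histogram shows genes detected per barcode (log axis) for all 240 barcodes that meet the marker rule, with a dashed line at 500 genes. Mature barcodes lie on both sides of the line, 108 below it and 79 above, while 4 precursor barcodes lie below it and 49 above.

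A neutrophil was called mature where it held more UMIs of Retnlg and Cxcr2 than of Camp and Ngp, and precursor where it held more of Camp and Ngp. Retnlg is a secreted resistin-like protein of mature mouse neutrophils, Cxcr2 the receptor for CXCL attractants, Camp the antimicrobial cathelicidin and Ngp a granule protein. This gave 79 mature and 49 precursor cells with no tie, a precursor share of 38.3% (29.8% to 47.3%). Camp and Ngp together had 0 to 236 UMIs in mature cells, with a median of 0, and 134 to 1373 in precursors, with a median of 493. Retnlg and Cxcr2 together had 2 to 267 UMIs in mature cells, with a median of 62, and 0 to 143 in precursors, with a median of 39. Some mature calls thus rest on few UMIs. The mature cell with the most genes (3465, at 9301 UMIs) held 2 of Retnlg and Cxcr2 and 0 of Camp and Ngp. Such cells stay in the mature levels that follow, and whether each is a neutrophil was not tested. Both pairs were read in 73 of the 128 cells, but only 3 cells drew between 40% and 60% of the 4 genes' UMIs from Camp and Ngp. The precursors were deeper, with a median of 2117 UMIs and 610 genes in mature cells, against 4266 UMIs and 853 genes in precursors. Thinning each cell to 1000 UMIs left 75 mature, 50 precursor and 2 tied cells of 127. By suffix, precursors were 9 of 29, 3 of 23, 27 of 54 and 10 of 22 neutrophils, and the exact intervals of these 4 shares overlapped except between suffix 3 (36.1% to 63.9%) and suffix 2 (2.78% to 33.6%). The share moved with the cell filter and the class rule. With the 112 barcodes added, precursors were 53 of 240, or 22.1%, and the intervals of suffix 3 (20.8% to 39.7%) and suffix 2 (3.20% to 26.7%) overlapped. With a stricter filter (1000 genes, 5% mitochondrial) there were 9 mature and 21 precursor cells, a share of 70.0%. With classes set by presence alone there were 46 mature and 9 precursor cells, a share of 16.4%.

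**Figure D3:**
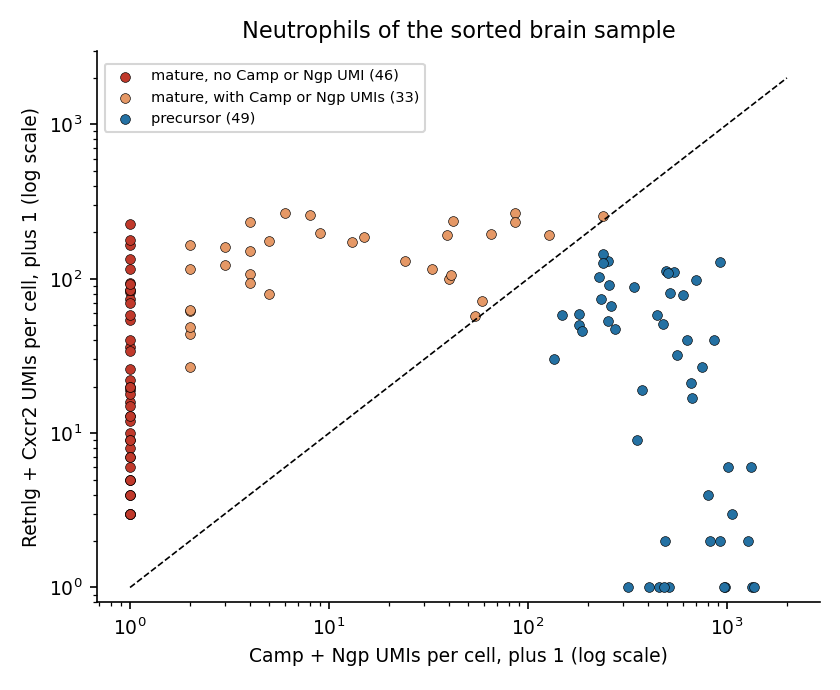
Each point is 1 of the 128 neutrophils, with Camp plus Ngp UMIs on the x axis and Retnlg plus Cxcr2 UMIs on the y axis (both plus 1, log scales), and the dashed line marks equal numbers. The 46 mature cells with no Camp or Ngp UMI stand at the left, the 33 mature cells with such UMIs run along the top, and the 49 precursors lie to the right of the line.

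Across all genes, mature and precursor neutrophils differed widely. Of 1668 genes with a mean of at least 50 CPM, 440 (26.4%) were at least 2-fold higher in mature cells and 105 (6.29%) at least 2-fold lower, on the log2(CPM + 10) scale. The median log2 ratio of all these genes was 0.38, and S100a8, S100a9, Camp and Ngp took much of the precursors' UMIs. With TMM scaling, which sets the bulk of genes level, the median was lower by 0.48 and the counts were 253 higher (15% of 1683) and 235 lower (14%). With marker, mitochondrial and ribosomal genes left out of the totals, it was lower by 0.52 and the counts were 393 and 427. Without suffix 3, 458 were higher and 216 lower. List counts below are read against these shares, are no result where near them, and are descriptions, since the classes come from the same cells. Levels by suffix rest on few precursors, 9, 3, 27 and 10 in suffixes 1 to 4.

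Secondary granule genes were lower in mature cells. Of 9 listed genes, 7 were at least 2-fold lower in mature cells, beside 6.29% of all genes, and none was higher. Their median log2 ratio was -3.30, against 0.38 for all genes. With TMM scaling 8 were lower, beside 14% of all genes. Camp and Ngp are among the 7 and chose the classes. Ltf, the iron-binding lactoferrin, had 218, 1033, 381 and 0 CPM in mature cells of suffixes 1 to 4, and 6485, 9282, 12426 and 8405 CPM in precursors. The highest mature value lay below the lowest precursor value, and Ltf was 24.4-fold (19.6 to 30.8) higher in precursors over all cells. Lcn2, which binds bacterial siderophores, had 2683, 1911, 2103 and 1735 CPM in mature cells of the 4 suffixes and 8680, 10660, 11543 and 8910 CPM in precursors. Chil3, a chitinase-like protein, had 93.4 CPM in mature cells, in 5 of 79, and 4965 CPM in precursors, in 47 of 49. Cd177, a surface partner of the protease PR3, had 236 CPM in mature cells and 739 CPM in precursors. Olfm4, a granule protein known to mark a subset of neutrophils, was read in 4 of 79 mature and 10 of 49 precursor cells. Hp (haptoglobin) and Pglyrp1, which binds bacterial cell walls, stayed within 2-fold, at 1976 and 2708 CPM in mature cells and 1953 and 4323 CPM in precursors. Cebpe, the transcription factor that mouse neutrophils need to make secondary granules, had 44.2 CPM in mature cells and 568 CPM in precursors, in 8 of 79 and 39 of 49 cells.

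Promoters of genes on both sides of the split are shown because C/EBP-family factors such as the Cebpe protein bind the letters searched. The motif was TTGCNNAA, or TTNNGCAA on the other strand, in the 250 bases before the RefSeq start. It was found in 3142 of 32851 promoters of all genes (9.56%) and in 6 of the 9 looked at, those of Ngp, Ltf, Lcn2, S100a9, Retnlg and Mmp8 but not Camp, S100a8 or Cxcr2. A match is a match of letters, not a binding site, and Retnlg, higher in mature cells, also held one. The sequences are RefSeq's, on GRCm38.p6, each 5′ to 3′ and cut where the annotated gene starts, with matches in capitals: Ngp on the plus strand at chr9:110419558-110419746, Ltf on the plus strand at chr9:111019042-111019270 and Retnlg on the plus strand at chr16:48872358-48872607.
Ngp: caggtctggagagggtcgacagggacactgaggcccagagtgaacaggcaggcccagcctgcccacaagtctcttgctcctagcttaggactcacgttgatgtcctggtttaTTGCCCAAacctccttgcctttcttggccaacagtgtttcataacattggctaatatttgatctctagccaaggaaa
Ltf: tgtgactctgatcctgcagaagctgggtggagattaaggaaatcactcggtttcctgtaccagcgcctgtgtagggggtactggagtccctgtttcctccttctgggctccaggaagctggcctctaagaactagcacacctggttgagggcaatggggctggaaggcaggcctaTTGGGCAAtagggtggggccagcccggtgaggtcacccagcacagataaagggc
Retnlg: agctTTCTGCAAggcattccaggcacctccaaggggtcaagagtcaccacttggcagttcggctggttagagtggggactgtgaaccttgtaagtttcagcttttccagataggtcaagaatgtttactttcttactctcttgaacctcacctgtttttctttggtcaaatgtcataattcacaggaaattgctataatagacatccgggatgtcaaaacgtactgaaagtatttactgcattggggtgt
The match of Ngp shown lay 138 bases before the start, that of Ltf 75 and that of Retnlg 246.

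The UMIs of most primary granule genes came from 2 cells. Elane, neutrophil elastase, had 0 UMIs in mature cells and 692 in precursors, and Mpo, myeloperoxidase, had 0 and 179. Of the 1099 UMIs of Mpo, Elane, Prtn3, Ctsg and Ms4a3 in precursors, 98.3% lay in 2 cells, one of suffix 1 with 894 of its 22388 UMIs and one of suffix 4 with 186 of its 7313. Both held 0 Ltf UMIs, at 485 and 406 UMIs of Camp and Ngp. All 6 primary granule genes were at least 2-fold lower in mature cells, beside 6.29% of all genes. But without the 3 precursors with at least 10 such UMIs the summed log2 ratio was -2.90, against -5.65 with them. Without the 35 cells that held genes of another cell type, 1 of the 6 genes passed the level filter, and it was lower in mature cells. Serpinb1a, an inhibitor of neutrophil proteases, had 88.5 CPM in mature cells, in 12 of 79, and 910 CPM in precursors, in 45 of 49, or 732 CPM without the 3 precursors. Fcnb, a lectin of the complement pathway, had 0 UMIs in mature cells and 142 in precursors, in 13 of 49, but 106 of those lay in the same 3 precursors. Without them Fcnb stood at 161 CPM in precursors, in 10 of 46, at least 10.9-fold higher in precursors against a floor of 3 counts over all mature cells.

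Cell cycle genes were read in precursors. No mature cell and 9 precursors held at least 3 UMIs of 12 cycling genes. Of the 16 listed proliferation genes, 5 passed the level filter. Of these, 4 were at least 2-fold lower in mature cells, beside 6.29% of all genes. With TMM scaling 5 of 6 were lower, beside 14%, and without the 35 cells with genes of another cell type 2 of 4, beside 6.69%. Rrm2, a subunit of the enzyme that makes DNA building blocks, was at 0 in mature cells and 136 CPM in precursors, or 80.4 CPM without the 3 precursors with primary granule UMIs. Hmgb2, a chromatin protein, had 747 CPM in mature cells and 2000 CPM in precursors. The 9 cells were deeper than the other precursors, with a median of 7313 UMIs against 4043.5, and their median of Retnlg and Cxcr2 was 0 UMIs against 49.5. The part of depth was not tested.

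The genes listed as tertiary granule genes gave counts near the share of all genes. Of 3 tested, none was at least 2-fold lower in mature cells, beside 6.29% of all genes, and 1 was higher, beside 26.4%. Mmp8, neutrophil collagenase, is a gene of the rule, and its place in this list rather than the secondary granule list was a choice. It had 1414, 1136, 1107 and 814 CPM in mature cells of suffixes 1 to 4. In precursors it had 803, 1078, 1038 and 843 CPM, so the ranges overlapped and in suffix 4 mature cells were lower. Mmp9, gelatinase B, had 1111 CPM in mature cells and 732 CPM in precursors. Adam8, a surface protease, was the 1 higher, at 256 CPM in mature cells and 113 CPM in precursors, and with TMM scaling none was. Mmp8 was 0.29 higher on the log2 scale in mature cells, and 0.19 lower with TMM scaling.

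Mature cells differed among themselves. Splitting them by Camp and Ngp, a split chosen after the values were seen, left 33 mature cells with such UMIs and 46 without. The 3 classes are given in the order precursor, mature with and mature without, and whether these are stages was not tested. They were spread unevenly over suffixes 1 to 4. Precursors numbered 9, 3, 27 and 10, mature cells with such UMIs 10, 3, 17 and 3, and those without 10, 17, 10 and 9. The levels below are pooled over suffixes, and the part of suffix in them was not tested. The 33 held from 1 to 236 Camp and Ngp UMIs a cell, and some held only 1. Camp was also read in 2.24% and Ngp in 2.74% of microglia-reading cells, which should lack them. Mmp8, a gene of the rule, had 946, 2013 and 360 CPM in these 3 classes, and Mmp9 732, 1441 and 805 CPM. Both were highest in the middle class. Retnlg, which chose the classes, ran the same way at 8459, 49266 and 17228 CPM. Lcn2 was lower in each next class of this order, at 10284, 3812 and 654 CPM, and Ltf at 9961, 848 and 0 CPM. Ly6g, the surface marker of mouse neutrophils and also a gene of the rule, had 899, 787 and 151 CPM. Csf3r, the receptor for the growth factor G-CSF, had 54.5, 184 and 701 CPM, and Il1b 7.78, 1359 and 5787 CPM. Median depth was 4266, 2434 and 1576 UMIs in the 3 classes. At an equal depth of 1000 UMIs a cell (49, 33 and 45 cells), Il1b was read in 0%, 54.5% and 93.3% of cells of the 3 classes and Csf3r in 2.04%, 27.3% and 55.6%. Mmp8 was then read in 61.2%, 69.7% and 28.9% of cells, Mmp9 in 55.1%, 78.8% and 68.9%, and Lcn2 in 98.0%, 84.8% and 28.9%. The order of the classes for each of these 5 genes was the same as in CPM, but the classes stayed those set at full depth. A cell with fewer UMIs can more easily lack Camp and Ngp, so this cannot take depth out of the classes. Split after thinning, 26 mature cells were with such UMIs and 49 without.

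Genes of other cell types also differed between the 3 classes. The choroid plexus list summed to 6603, 34816 and 79774 CPM and the microglia list to 778, 1380 and 2586 CPM, and 22.4%, 21.2% and 37.0% of cells held at least 3 genes of a list of another cell type. Without those cells, Il1b had 11.5, 1776 and 8482 CPM in the 38, 26 and 29 cells left, and Csf3r 57.6, 254 and 985 CPM. Mmp8 then had 1215, 2506 and 623 CPM. Each of these 3 genes was higher in every class without those cells than with them. The part of free RNA in the cells left was not tested.

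**Figure D4:**
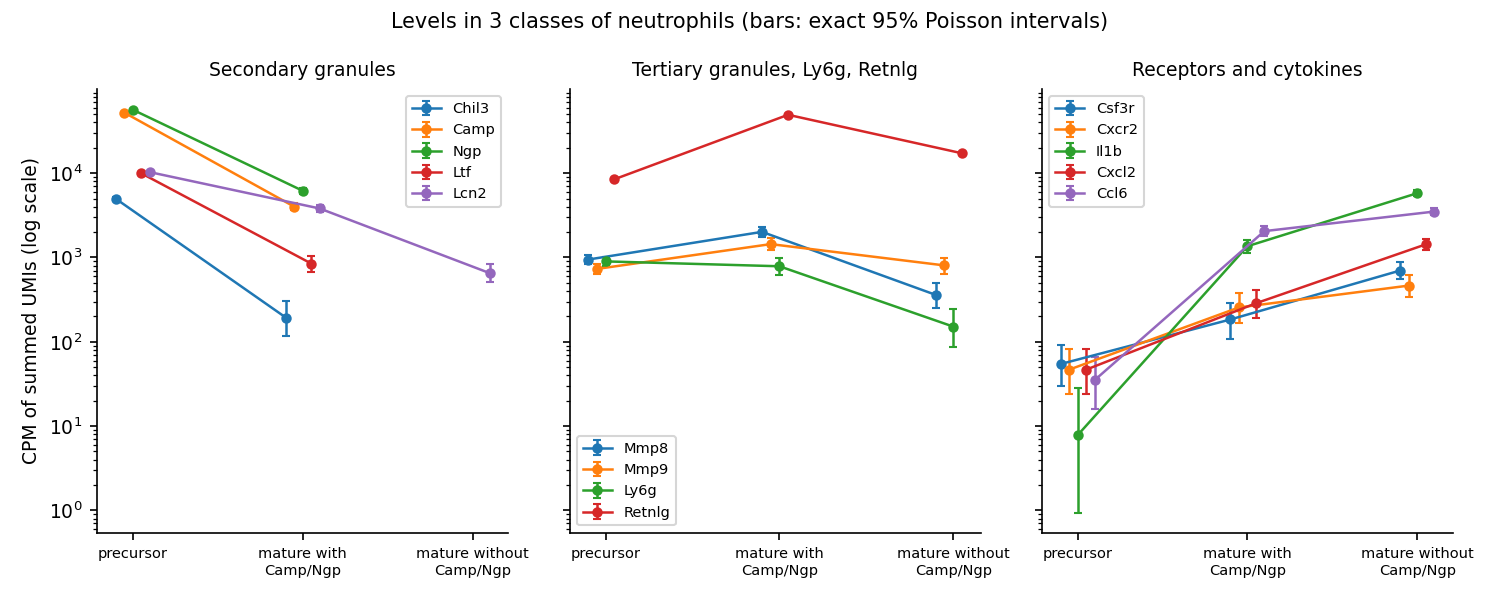
CPM of summed UMIs (log axis) is drawn for named genes in precursors, mature cells with Camp or Ngp UMIs and mature cells without, with exact 95% Poisson intervals. A gene at 0 UMIs in a class is not drawn, as for Ltf, Camp, Ngp and Chil3 in mature cells without such UMIs. Mmp8, Mmp9 and Retnlg peak in the middle class, and Il1b runs highest in mature cells without Camp or Ngp.

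Genes of mature neutrophils were higher in mature cells, as 12 of the 14 listed (1 lower), beside 26.4% of all genes. With TMM scaling 10 were higher, beside 15%. Retnlg and Cxcr2, which chose the classes, are among them. Csf3r had 453, 1007, 283 and 177 CPM in mature cells of suffixes 1 to 4 and 43.0, 59.9, 46.5 and 96.3 CPM in precursors. It was 8.30-fold (4.71 to 15.8) higher in mature cells. Clec4d, a lectin that senses microbial glycolipids, had 570 CPM in mature cells, in 58 of 79, and 7.78 CPM in precursors, in 1 of 49. Ccl6, a chemokine of myeloid cells, had 2864, 3925, 2054 and 3329 CPM in mature cells of the 4 suffixes and 71.7, 0, 31.0 and 0 CPM in precursors. The member that went the other way was Wfdc21, of the whey acidic protein family, at 3200 CPM in mature cells and 8253 CPM in precursors. Jaml, an adhesion molecule, and H2-Q10, a class I protein, had 0 UMIs in precursors and 226 and 236 CPM in mature cells, at least 19.4-fold and 20.2-fold higher against a floor of 3 counts over all precursors.

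Cytokine genes had the highest ratio of mature over precursor among the 15 lists. Their summed level was 9015 CPM (8607 to 9437) in mature cells, against 331 CPM (264 to 409) in precursors. All 7 that passed the level filter were at least 2-fold higher in mature cells, beside 26.4% of all genes. With TMM scaling all 7 were higher too, beside 15% of all genes. Il1b, a cytokine that drives inflammation, had 3426, 8522, 1955 and 2337 CPM in mature cells of suffixes 1 to 4 and 0, 0, 7.66 and 24.1 CPM in precursors. It was read in 67 of 79 mature and 2 of 49 precursor cells, and after thinning to 1000 UMIs in 76.9% of 78 mature cells and in none of 49 precursors. It was also read in 40.2% of monocyte-reading and 5.17% of microglia-reading cells. Cxcl2, which attracts neutrophils through Cxcr2, had 580, 2272, 394 and 956 CPM in mature cells and 57.4, 0, 62.0 and 0 CPM in precursors of the 4 suffixes. Ccl4, a chemokine, had 614 CPM in mature cells and 3.89 CPM in precursors, but 48.0% of the mature UMIs came from 1 cell. Il1rn, the blocker of the Il1b receptor, had 143 CPM in mature cells and 31.1 CPM in precursors. Cxcl3 had no UMI in any neutrophil.

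Interferon response genes were higher in mature cells as 6 of 8 tested, beside 26.4% of all genes, with 7 of the 15 listed under the level filter. With TMM scaling 4 of 7 were higher, beside 15% of all genes. Ifitm1, a membrane protein that blocks virus entry, had 199, 1885, 357 and 248 CPM in mature cells of suffixes 1 to 4 and 0 UMIs in precursors, at least 50.5-fold higher against the same floor. Isg15, a ubiquitin-like protein, had 270 CPM in mature cells and 19.5 CPM in precursors. Of Ifit3's UMIs in mature cells, 82.1% came from 1 cell. Without suffix 2 the summed log2 ratio of the list was 0.69, against 1.12 with it, and with TMM scaling it was 0.64. Ifitm3 had 1199 CPM in mature cells and 1183 CPM in precursors.

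Among DNA sensing genes, the pathway of the deleted gene, most were near 0. Tmem173, which encodes STING, had 1 UMI in mature cells and 2 in precursors, against 56.1 CPM in the other kept cells, so its loss cannot be checked in these cells. Mb21d1, the DNA sensor cGAS, had 1 UMI in all. Of 10 genes only Samhd1 and Irf7 passed the filter, both at least 2-fold higher in mature cells, beside 26.4% of all genes. With TMM scaling it was 0 of 1 tested, beside 15%, and so few genes give no result. Samhd1, a nucleotide hydrolase, had 349 CPM in mature cells and 128 CPM in precursors.

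The other lists are given as counts at least 2-fold higher, beside 26.4% of all genes (15% with TMM scaling), and lower, beside 6.29% (14%), and with 5 to 10 genes a list, counts near these shares are not results. Attractant and growth factor receptors were higher in mature cells as 5 of 10 (4 with TMM scaling) and lower as 1. Cxcr2, which chose the classes, is among the 5 and the 4. Ccr1, a chemokine receptor, had 393 CPM in mature cells and 81.7 CPM in precursors, and Fpr1, which senses bacterial formyl peptides, 192 and 42.8 CPM. Ltb4r1, the leukotriene B4 receptor, went the other way at 63.9 CPM in mature cells and 416 CPM in precursors, and Lta4h, the enzyme that makes leukotriene B4, had 19.7 CPM in mature cells and 331 CPM in precursors. Of 6 phagocyte oxidase genes 1 was at least 2-fold lower in mature cells, the catalytic subunit Cybb, at 177 CPM in mature cells and 626 CPM in precursors. With TMM scaling 3 were lower. Of 8 tested sensing receptors 6 were higher in mature cells and, with TMM scaling, 2. Trem1, an amplifier of inflammation, had 354 CPM in mature cells and 132 CPM in precursors. Of 7 adhesion genes 4 were higher in mature cells (3 with TMM scaling) and 1 lower. Selplg, the selectin ligand, had 742 CPM in mature cells and 163 CPM in precursors, and Itgb2l, an integrin-like gene, 59.0 and 245 CPM. Of 9 tested transcription factors 6 were higher in mature cells (5 with TMM scaling) and 1, Cebpe, lower. Junb had 3313 CPM in mature cells and 510 CPM in precursors, and Cebpb 167 and 15.6 CPM. Of 5 tested survival genes 4 were higher in mature cells (3 with TMM scaling), Mcl1 at 378 CPM in mature cells and 121 CPM in precursors. Of 5 tested S100 genes 2 were higher, S100a6 at 6252 CPM in mature cells and 2117 CPM in precursors and S100a11 at 7299 and 3346 CPM, while with TMM scaling 1 was higher and 2 were lower.

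**Figure D5:**
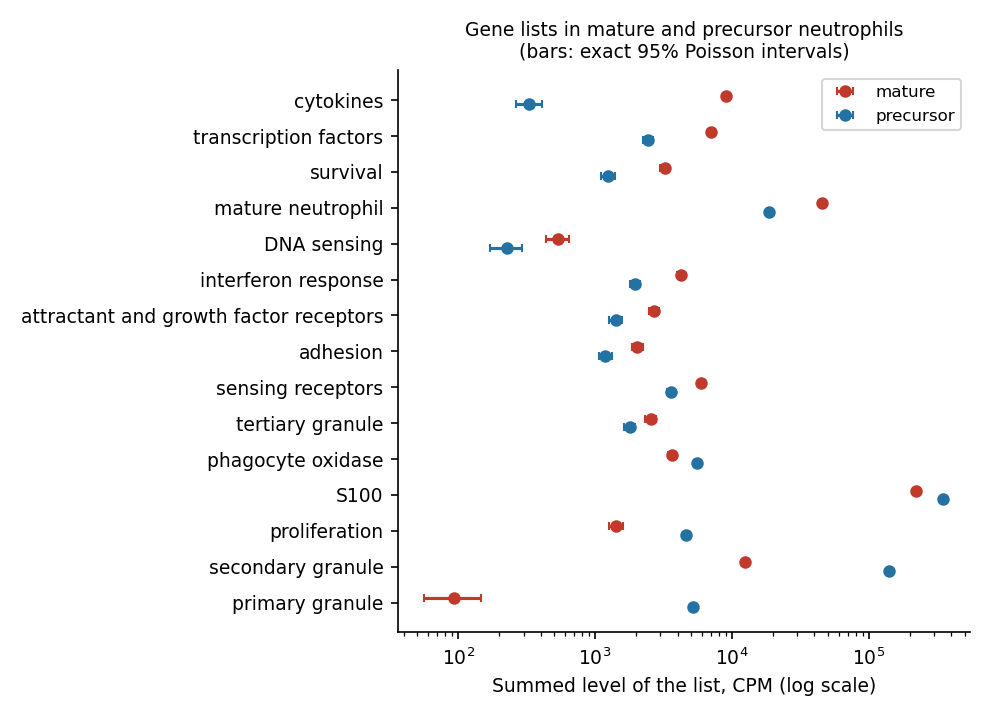
The summed level of each gene list (CPM, log axis) is drawn in mature and precursor neutrophils with exact 95% Poisson intervals, the lists ordered by the ratio of mature over precursor. Cytokines stand apart at the top with 9015 CPM in mature cells and 331 CPM in precursors, and secondary and primary granules at the bottom run the other way.

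Some of the genes highest in mature over precursor cells rested on 1 cell. Of the mature UMIs of H2-Aa, H2-Ab1, Cd74 and Mgp, 83.7%, 90.7%, 80.2% and 90.9% came from 1 cell for each gene. The first 3 are genes of class II antigen presentation. Without the 35 cells that held genes of other cell types, the log2 ratio of H2-Ab1 was -0.19, against 4.87 with them, and that of Cd74 was 0.68, against 4.596. Ttr made up 5.64% of the UMIs of mature cells and 0.646% of those of precursors, and by suffix the choroid plexus list ran between 6622 and 95105 CPM over all neutrophils. Their part in the other differences was not tested beyond leaving out those cells. After that, 7 of 7 tested cytokine genes were at least 2-fold higher in mature cells, beside 28.6% of all genes. Of 9 secondary granule genes 7 were lower, beside 6.69%.

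Set against the 9948 other kept cells of the sorted sample, neutrophils had fewer genes higher than lower, an order that TMM scaling turned. Of 2102 genes tested, 305 (14.5%) were at least 2-fold higher in neutrophils and 811 (38.6%) lower, at a median log2 ratio of -0.73. TMM scaling moved that median by 0.67, and the counts were then 481 higher and 322 lower. Among the genes with the highest ratios, beside those of the rule, were Lcn2, at 6700 CPM in neutrophils and 2.08 CPM in the other cells, and G0s2, an inhibitor of fat breakdown, at 1848 and 11.9 CPM. Lrg1, a leucine-rich glycoprotein, had 497 CPM in neutrophils and 0.683 CPM in the others, and Anxa1, an annexin that limits inflammation, 2561 and 48.3 CPM. All 25 genes named by the rule had a UMI in at least 47 of the 128 neutrophils.

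Neutrophils were also set against the 102 monocyte-reading cells, each with at least 3 of 7 monocyte genes. Where these cells came from was not tested. Of 2112 genes tested, 173 (8.19%) were at least 2-fold higher in neutrophils and 769 (36.4%) lower, or 336 and 357 with TMM scaling, which moved the median log2 ratio by 0.65. Mmp9 had 899 CPM in neutrophils and 0 UMIs in monocyte-reading cells, at least 133-fold higher in neutrophils. S100a4, a calcium-binding protein of the same family as S100a8, had 13.03 CPM in neutrophils and 1406 CPM in monocyte-reading cells. Crip1 had 169 CPM in neutrophils and 5199 CPM in monocyte-reading cells, and Ccl9, a chemokine, 13.03 and 1030 CPM. Cd209a, of dendritic cells, was at 0 in neutrophils and read in 15 of the 102 monocyte-reading cells.

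The same rule found 128 neutrophils in the sorted sample and 8 of 9367 kept cells in the total brain sample, 1.27% (1.06% to 1.51%) against 0.0854% (0.0369% to 0.168%). Sort, ages, sexes and software version differ together between the samples and cannot be told apart. Of the 8, 7 were mature and 1 precursor, and the precursor held 2131 Camp and Ngp UMIs and 9355 S100a8 and S100a9 UMIs. The 8 held 996 to 6491 genes, against no more than 3618 in a neutrophil of the sorted sample. Of those called mature, 1 held 19150 UMIs and 5097 genes, with 181 S100a8 and S100a9 UMIs and 1 of Retnlg and Cxcr2. Whether each of the 8 is a neutrophil was not tested. No levels are given for these 8 cells.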

How the data were processed

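The authors deposited 1 matrix of raw UMI counts per sample (31053 genes), with cells already called. Cell Ranger 3.0.2 and mm10 are named in the submitters' processing notes. The file headers name 3.0.2 for the sorted sample and 3.1.0 for total brain. Per the labels, 10x Genomics v3 chemistry was used. Cells were kept from 500 genes upward, with no more than 10% of UMIs mitochondrial. They held a median of 2293.5 UMIs in the sorted and 1692 in the total brain sample. The members, lists and rules were chosen with earlier results of these data known. Monocyte-reading cells held a UMI of Lyz2 and of at least 3 of Ccr2, Ly6c2, Plac8, Ms4a4c, F13a1, Fn1 and Vcan, with under 3 of 7 microglial genes, and microglia-reading cells held at least 4 of those and under 3 monocyte genes. UMIs were summed per class and given as CPM with exact Poisson intervals. Ratios of CPM plus 10 were called at 2-fold among genes with a mean level of at least 50 CPM. Shares have Clopper-Pearson intervals. Cells are not replicates, so no test was run. Named genes had the largest ratios among genes of at least 100 CPM (25 against other cells) or 200 CPM (12 each way against monocyte-reading cells, 15 each way between classes), in the same direction in each suffix with enough cells, plus the list members. Of the lists, 1 gene, Clec7a, is not used here. Alternatives covered cell filters, S100 minimum, doublets (Scrublet in scanpy 1.11.5), suffixes, class rule, pseudocount, level filter and scaling. Calls were also run on simulated Poisson counts with log2 changes of 2 either way and no spread between cells. That setting differs from the data, so it cannot vouch for calls near 2-fold or for genes that rest on 1 cell. Python 3.11.15, numpy 2.4.6, pandas 2.3.3 and scipy 1.17.1 were used.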

Additional observations from a re-analysis of the deposited data

Results flagged for a closer look

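In the sorted sample, 112 barcodes met the marker rule but lay below the cell filter and entered no comparison. S100a8 took 181723 CPM in them, against 179505 CPM in the 128 members, but it is a gene of the rule and gives no check. Outside the rule, Lcn2 had 2225 CPM in them and 6700 CPM in the members, and Il1b 5949 and 1620 CPM. The mature members alone had 2173 CPM of Lcn2 and 3657 CPM of Il1b. Of the 112, 4 were precursors.

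The same rule found 8 neutrophils in the total brain sample, whose cells entered no comparison of levels.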

How the results depend on the processing

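No paired analysis was possible because each group is 1 pooled sample and no result comes from a test. Each alternative was set against the value given, and 163 of 213 counts and shares stayed within their interval or within 1.5 times. With the looser cell filter (200 genes, 20% mitochondrial) there were 240 neutrophils (1.91%), 187 of them mature, and precursors were 22.1%. With the stricter filter (1000 genes, 5%) there were 30 (0.686%), 9 mature and 21 precursor (70.0%). Between mature and precursor cells 782 genes were then higher and 210 lower, and 2 lists higher and 5 lower in summed level, against 6 and 3. Classes set by presence alone gave 46 mature and 9 precursor cells (16.4%), 673 genes higher and 279 lower, and 10 lists higher. With no filter on the mean level, 639 genes were higher and 2566 lower in neutrophils than in the other cells, 572 and 2066 against monocyte-reading cells, and 1889 and 597 in mature over precursor cells. With a mean of at least 200 CPM these were 108 and 233, 59 and 250, and 123 and 37. With TMM scaling they were 481 and 322, 336 and 357, and 253 and 235, with 2 lists higher and 5 lower. Without marker, mitochondrial and ribosomal genes in the totals, 603 and 501 genes differed from the other cells, 363 were higher than in monocyte-reading cells and 427 were lower in mature cells. Leaving out the 35 cells with genes of another cell type, an alternative chosen after seeing the data, the share was 0.926% and the log2 ratio of H2-Ab1 was -0.19. Leaving out the 3 precursors with primary granule UMIs was also chosen after seeing the data. The cause was not tested. Leaving out each suffix gave 74 to 106 neutrophils (0.920% to 1.43%), 52 to 67 mature and 22 to 46 precursor cells (29.7% to 43.8%), and 106 to 216 genes lower in mature cells. Of 1312 named gene ratios, 1308 kept their direction and side of 2-fold, and the exceptions were H2-Ab1 and Cd74. List levels kept their side in 221 of 252. Ratios of genes with few UMIs are limited by depth, at 4.92 CPM for 1 UMI in mature cells and 3.89 CPM in precursors.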
